A study of Mus musculus with 6 samples.

Results

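The histone genes of intestinal organoids were followed through treatment with DM-aKG, a form of α-ketoglutarate (an intermediate of the TCA cycle) esterified so that it can enter cells. Members were taken by gene symbol alone: 69 clustered genes (symbols that begin with Hist1h to Hist4h) and 14 replacement variants (symbols that begin with H2af, H3f3 or H1f followed by a digit or x), together 83 of the 24956 genes in the table. The organoids, epithelial cultures that grow as closed budding structures in organoid medium, carried the Apc Min genotype, a nonsense mutation of the Wnt pathway restrainer Apc. The study had 3 control and 3 DM-aKG libraries, all of this genotype and described as biological replicates. The dose and time of treatment, the vehicle of the controls, the age of the mice and whether replicates came from separate animals are not stated in any label, so p-values measure the spread between these samples only.

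Histones package DNA into nucleosomes, each an octamer of H2A, H2B, H3 and H4, with the linker histone H1 bound at the entry and exit of the DNA. Clustered genes supply the bulk of histones during S phase. Most of their messages carry no poly(A) tail but end just after a conserved stem-loop bound by the protein Slbp. Replacement variants are encoded by single genes outside the clusters, mostly with introns and poly(A) tails, and are deposited throughout the cell cycle. In a renewing epithelium such as the intestine, dividing crypt cells and differentiated cells therefore draw on different sets of histone genes. The labels give total RNA as the starting material; how RNA was selected for the libraries is not stated, and its part in the levels of the clustered genes was not tested.

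The stem-loop is shown for 6 members because it marks where the short form of a histone message ends and because several of the better measured clustered genes have annotated transcripts that run far past it. In GENCODE M21 transcripts on GRCm38 (the same assembly as mm10), 46 of 69 clustered genes held a match to the stem-loop consensus of 16 bases. The 23 without a match had a median annotated length of 405 bases, against 619 in the 46 with one. A transcript annotated only to a point before the stem-loop cannot hold a match. A missing match therefore does not show that a gene lacks the stem-loop. Among the 14 replacement variants the match was found in H2afx. Capitals mark the stem-loop and lower case the transcript around it.
Hist1h1c: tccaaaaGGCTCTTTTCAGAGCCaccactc
Hist1h2ac: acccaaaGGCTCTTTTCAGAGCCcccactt
Hist3h2a: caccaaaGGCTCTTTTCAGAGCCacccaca
Hist1h4c: aacaaaaGGCCCTTTTCAGGGCCacccaca
Hist1h2ap: aaaaaaaGGCTCTTTTCAGAGCCatc
H2afx: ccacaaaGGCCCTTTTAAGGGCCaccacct
The capitals lie at chr13:23739512-23739527 (plus strand) for Hist1h1c, chr13:23683477-23683492 (minus) for Hist1h2ac and chr11:58955172-58955187 (plus) for Hist3h2a. For Hist1h4c they lie at chr13:23698089-23698104 (minus), for Hist1h2ap at chr13:21833029-21833044 (minus) and for H2afx at chr9:44335240-44335255 (plus). The annotated transcript of Hist1h2ap stops 3 bases after the stem-loop, whereas those of Hist1h1c, Hist1h2ac, Hist3h2a, Hist1h4c and H2afx run on for 840, 2010, 1643, 454 and 822 bases.

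Values are RPKM, reads scaled to gene length (kilobases) and to library size, so levels can be compared between genes; the gene lengths behind them are not stated. Replacement variants were far more abundant in these libraries than clustered genes. A mean of at least 1 RPKM over the 6 libraries was reached by 8 of 14 replacement variants and by 9 of 69 clustered genes. The median level was 26.1 RPKM over the replacement variants and 0.165 RPKM over the clustered genes. The order began with H2afz (243.6 RPKM), H3f3b (189), H3f3a (146), H1f0 (119), H2afy (71.7) and H2afx (40.1), and the first clustered gene, Hist1h2bc, was in seventh place with 31.9 RPKM. H2afj (31.1) and H2afv (21.2) followed, and the next clustered genes were Hist1h1c (9.21), Hist1h2ap (8.95) and Hist3h2a (4.74). The ranges of Hist1h2bc (29.5 to 33.8 RPKM over all libraries) and H2afj (28.5 to 34.04) overlapped, as did those of H3f3b (165.9 to 212) and H3f3a (110.6 to 185). Just inside the filter lay Hist1h2ac (1.95), Hist1h2ag (1.70) and Hist1h4c (1.32), and just outside it Hist1h4i (0.937), Hist2h2aa2 (0.933) and Hist1h1e (0.647). Hist1h2ag is among the 9 only through control replicate 1 (9.58 RPKM), and its median over the libraries was 0.08 RPKM. Of the 83 genes, 4 clustered genes and the 3 H2afb genes were listed at 0 in every library. The remaining low replacement variants were H1fx (0.322 RPKM), H2afy2 and H2afy3. GENCODE annotates H2afy3 and the clustered members Hist1h2al and Hist3h2bb-ps as processed pseudogenes.

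**Figure D1:**
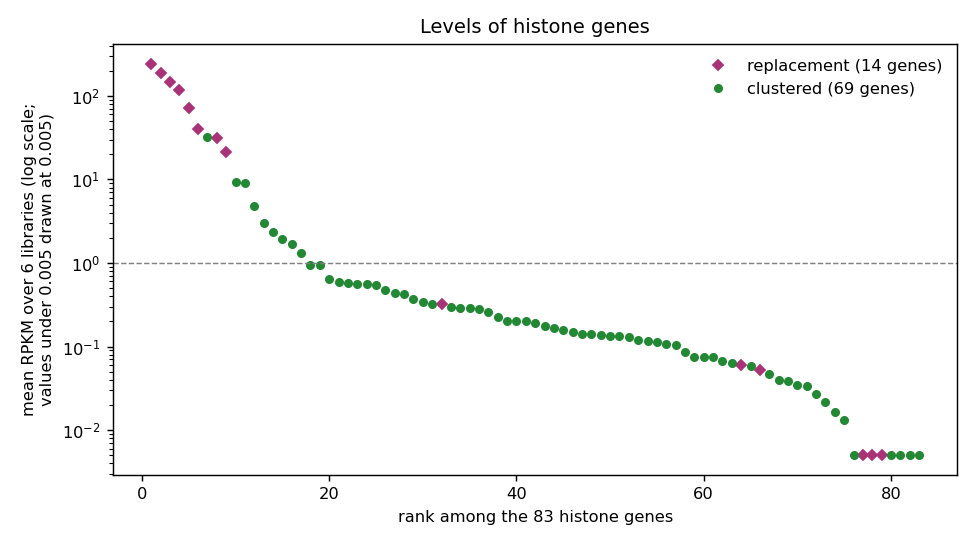
Mean RPKM over the 6 libraries (log scale) of the 83 histone genes in order of level, with 14 replacement variants as diamonds and 69 clustered genes as circles; the dashed line marks 1 RPKM, and means under 0.005 are drawn at 0.005. The first 6 places are replacement variants, and 60 clustered genes lie below the line.

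By histone class the gap was widest for H3. H3f3a and H3f3b encode the same protein, the H3 replacement variant. They held 99.1% to 99.4% of the RPKM of the H3 members in the controls and 98.9% to 99.5% in DM-aKG. Cenpa, an H3 variant outside the symbol rule, is not counted in this share. None of the 12 clustered H3 genes reached a mean of 1 RPKM, and the highest single value among them was 1.11 RPKM. For H1 the replacement share was 93.0% to 94.6% in the controls and 88.8% to 89.1% in DM-aKG, without overlap. For H2A it was 93.9% to 94.9% and 94.6% to 95.5%. H2B and H4 had clustered genes only, 19 with a summed level of 36.4 to 43.3 RPKM and 13 with 2.05 to 5.20 RPKM. Hist1h2bc alone made up 35.6% to 49.0% of the clustered sum.

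The clustered genes above the filter tended to have long annotated transcripts. Of 21 clustered genes with a transcript of at least 800 bases, 6 reached 1 RPKM, and of 48 with a shorter one, 3 did. The median level was 0.552 RPKM in the former and 0.138 in the latter. Hist1h2bc, the highest, has a transcript of 1156 bases in 2 exons without a stem-loop match, and Hist2h2be has one of 2620 bases, also without a match. The short ones above the filter were Hist1h2ap, Hist1h2ag (through control replicate 1 alone) and Hist2h2aa1, of 482, 485 and 586 bases. These are also the members that cannot be told well from their copies: 93.1%, 78.9% and 89.4% of the 50-base words in their transcripts occur in transcripts of other genes. The share was 30.1% for Hist1h2bc, 31.5% for Hist3h2a (all of it shared with the overlapping gene Trim17, at 0.123 RPKM), 33.2% for H2afz, 14.9% for H3f3a and 0 for Hist2h2be, H1f0, H2afv and H2afy. How the authors assigned reads that match several genes is not stated in the labels, so levels of genes with a large share are uncertain.

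All 8 replacement variants that were tested fell in DM-aKG. H1f0 and H2afv fell most, by 0.83 ± 0.12 and 0.73 ± 0.08 on the log2 scale (± SE), and H2afj fell least, by 0.15 ± 0.04. All 8 passed limma on log2(RPKM + 0.5) at an adjusted p under 0.05, and 0 were higher at an adjusted or an unadjusted p. Among all 10852 genes tested, 24.7% were called lower and 30.9% higher, and the median log2 fold change was -0.35 over the 8 variants and 0.02 over all genes. Centring each library on its median gave 2790 higher and 3340 lower genes in place of 3354 and 2679, and left the 8 calls. In bulk organoids, less RNA per cell and fewer cells of a type cannot be told apart. The summed level of the replacement variants was 982 ± 14.3 RPKM in the controls and 741 ± 69.2 in DM-aKG (mean ± SD over the 3 libraries of a group, here and below), a ratio of 0.755. In each of the 8 the groups did not overlap, as in 64.2% of all tested genes, and 55.6% of all tested genes were called in either direction.

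**Figure D2:**
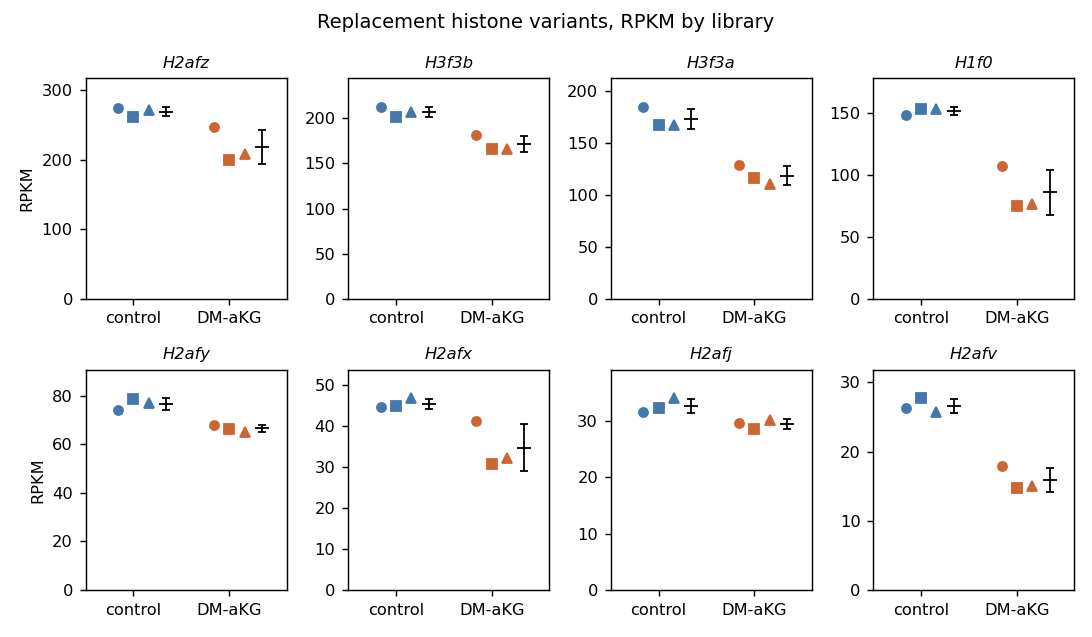
RPKM of the 8 tested replacement variants in each library (circle, square and triangle for replicates 1, 2 and 3), with mean ± SD of each group beside the points. All DM-aKG points lie below all control points, and DM-aKG replicate 1 is the highest of its group in 7 of the 8 panels.

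Among linker histones, H1f0 encodes a variant known from cells that have left the cell cycle. It stood at 147.9, 153 and 153 RPKM in control replicates 1 to 3 and at 107, 74.5 and 76.5 in DM-aKG replicates 1 to 3 (adjusted p = 0.00106 by limma). The controls lay within a narrow band and DM-aKG replicate 1 lay between them and the other treated libraries. The clustered linker gene Hist1h1c was not called, with 9.20, 7.09 and 9.94 RPKM in the controls and 11.9, 8.35 and 8.77 in DM-aKG. These ranges overlapped, and the log2 fold change of Hist1h1c was 0.14 (95% interval -0.22 to 0.49, adjusted p = 0.481 by limma). With control replicate 2 and DM-aKG replicate 1 both left out it was lower by -0.15 (adjusted p = 0.0458 by limma). No other linker gene reached 1 RPKM.

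Of the H2A variants, H2afz and H2afv encode both forms of H2A.Z, which sits at gene starts and enhancers. H2afz was at 274, 261 and 271 RPKM in the controls and at 246.5, 199 and 209 with DM-aKG (adjusted p = 0.0113 by limma). H2afv was at 26.3, 27.7 and 25.8 RPKM in the controls and at 17.9, 14.7 and 15.0 with DM-aKG (adjusted p = 2.00e-04 by limma). On the log2 scale H2afz fell by 0.31 ± 0.08 and H2afv by 0.73 ± 0.08, and the ratio of H2afv to H2afz was 0.0989 ± 0.00612 in control and 0.0727 ± 0.00111 in DM-aKG. Every DM-aKG ratio lay below every control ratio, which gives p = 0.10 in an exact two-sided permutation test (adjusted p = 0.10 over 3 ratios chosen after their values were seen), the smallest that 3 against 3 libraries allow.

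H2afx encodes the variant that is phosphorylated around DNA breaks. Its values were 44.6, 44.8 and 46.8 RPKM in the controls and 41.3, 30.9 and 32.1 with DM-aKG (adjusted p = 0.0121 by limma). H2afy, the gene of the large variant macroH2A, was at 74.1, 78.7 and 77.2 RPKM in the controls and 68.2, 66.5 and 65.3 with DM-aKG (adjusted p = 0.00435 by limma). H2afj went from 31.7, 32.3 and 34.04 RPKM to 29.6, 28.5 and 30.2 (adjusted p = 0.0243 by limma). This was the weakest of the calls: it was lost with every library scaled to an equal RPKM sum (adjusted p = 0.0899 by limma), without control replicate 3 (0.102) and without DM-aKG replicate 2 (0.0868), within a range over all alternatives of 0.00168 to 0.102.

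Both H3 replacement genes fell. H3f3a was at 185, 167 and 168 RPKM in the controls and at 129, 117 and 110.6 in DM-aKG, and fell by 0.54 ± 0.07 in log2 units (adjusted p = 4.29e-04 by limma). H3f3b was at 212, 202 and 207 RPKM in the controls and at 181, 165.9 and 166 in DM-aKG, and it fell by 0.27 ± 0.05 (adjusted p = 0.00248 by limma). The ratio of H3f3a to H3f3b was 0.837 ± 0.0295 in control and 0.693 ± 0.0249 in DM-aKG, again without overlap (exact permutation test, p = 0.10, adjusted p = 0.10). This ratio too was chosen after its values were seen, and its p is the smallest that the test can give. H3f3a shares 50-base words with other genes, among them Gm12657, listed at a mean of 6.60 RPKM. DM-aKG replicate 1 was the highest treated library in 7 of the 8 falling variants, and in 70.8% of the 2679 genes called lower.

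Most of the clustered genes that could be tested were not called. Of 9 tested, 0 were called higher (1 at an unadjusted p under 0.05 by limma) and 2 lower. Over all tested genes 30.9% were called higher and 24.7% lower (55.6% called). The median log2 fold change was -0.50 over the 9 clustered genes and 0.02 over all tested genes. The 60 other clustered genes lay below the filter and were not tested. Hist1h2bc, the most abundant clustered gene, was at 33.3, 29.5 and 29.9 RPKM in the controls and 31.8, 33.0 and 33.8 in DM-aKG. These ranges overlapped, with a log2 fold change of 0.09 (95% interval -0.04 to 0.22, adjusted p = 0.206 by limma), and it passed as higher without control replicate 1 (0.0467). The sum over all 69 clustered genes was 83.5 ± 6.22 RPKM in the controls and 72.6 ± 7.81 in DM-aKG, a ratio of 0.870, with overlapping libraries. Without Hist1h2bc the ratio was 0.756. The count of clustered calls depended on single libraries: without control replicate 1 it was 2 higher and 4 lower, without control replicate 2 or control replicate 3 it was 1 lower, and without DM-aKG replicate 1 it was 1 higher and 3 lower. With control replicate 2 and DM-aKG replicate 1 both left out, it was 0 higher and 3 lower.

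Hist2h2be, a clustered H2B gene with a long annotated transcript, had the largest fall among the called histone genes. It was at 3.07, 3.62 and 3.56 RPKM in the controls and 1.93, 1.13 and 0.950 in DM-aKG, and fell by 1.13 ± 0.18 in log2 units (adjusted p = 0.00147 by limma). All treated libraries were below all controls, and at its transcript length the values stand for about 81.3 to 317.5 reads. The call held under all 17 alternatives that tested it. Within H2B, the ratio of Hist2h2be to Hist1h2bc was 0.111 ± 0.0166 in control and 0.0410 ± 0.0173 in DM-aKG (exact permutation test, p = 0.10, adjusted p = 0.10). The ratio was chosen after its values were seen and sets a called gene over one that was not called. Its p is the smallest that this test can give, so it adds no support to the call.

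Hist2h2aa1, an H2A gene, was the other call, from 3.36, 3.98 and 3.36 RPKM to 2.45, 1.79 and 3.00 (adjusted p = 0.0228 by limma). Its near-identical copy Hist2h2aa2, below the filter, was at 0.460, 0.120 and 0.950 RPKM in the controls and at 1.22, 1.91 and 0.940 in DM-aKG. Their sum was 3.82, 4.10 and 4.31 RPKM in the controls and 3.67, 3.70 and 3.94 in DM-aKG, so the groups overlapped. The call of Hist2h2aa1 did not hold without control replicate 2 (adjusted p = 0.0776 by limma) or control replicate 3 (0.0501), with control replicate 2 and DM-aKG replicate 1 both left out (0.0531) and with no filter on low values (0.0571), where the range over all alternatives was 0.00634 to 0.0776.

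**Figure D3:**
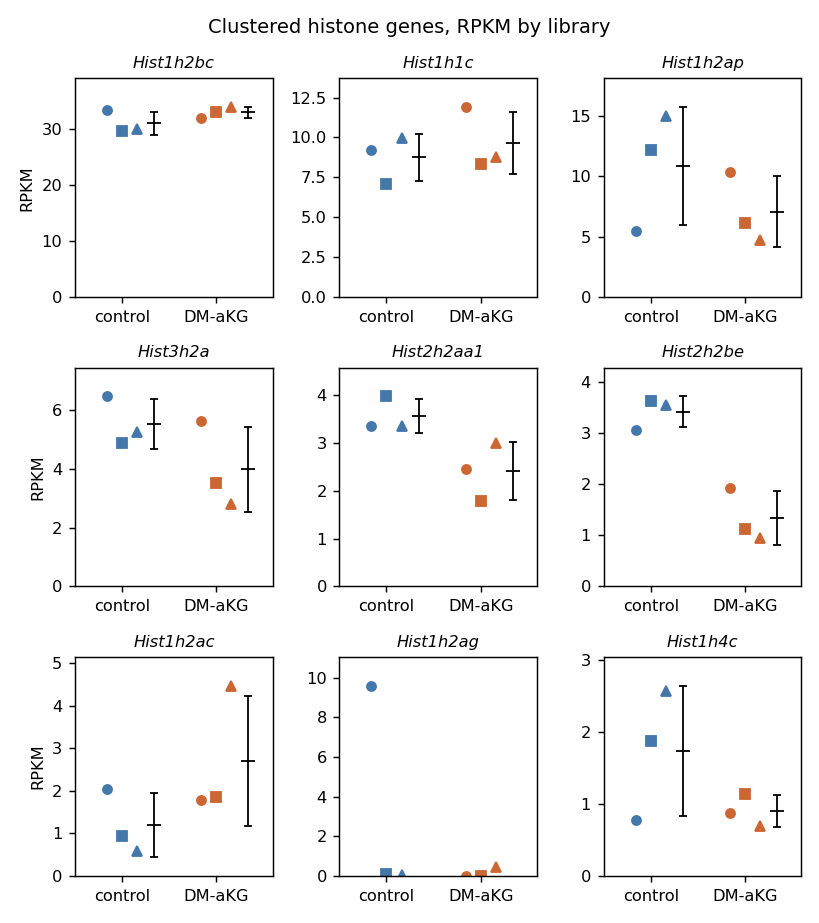
RPKM of the 9 tested clustered genes in each library (circle, square and triangle for replicates 1, 2 and 3), with mean ± SD of each group except for Hist1h2ag, which is listed at 0 in 2 libraries. Hist2h2be and Hist2h2aa1 separate the groups, and Hist1h2ag is high in control replicate 1 alone.

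The other clustered genes varied widely between replicates. Hist3h2a, an H2A gene, was at 6.45, 4.86 and 5.23 RPKM in the controls and at 5.60, 3.52 and 2.79 with DM-aKG (adjusted p = 0.0928 by limma), and it passed without DM-aKG replicate 1 (adjusted p = 0.00195 by limma). Hist1h2ac was at 2.05, 0.950 and 0.590 RPKM in the controls and 1.79, 1.86 and 4.47 with DM-aKG (adjusted p = 0.0709 by limma), and it passed as higher without control replicate 1 (0.0251) or DM-aKG replicate 1 (0.0432). Hist1h4c, the only H4 gene above the filter, was at 0.780, 1.88 and 2.57 RPKM in the controls and 0.880, 1.14 and 0.700 with DM-aKG (adjusted p = 0.122 by limma), and it passed as lower without control replicate 1 (0.00596). In all of these the groups overlapped.

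Hist1h2ap and Hist1h2ag, H2A genes that share part of their sequence, differed most from the other controls in control replicate 1. Of the 50-base words of Hist1h2ap, 403 also occurred in Hist1h2ao and 313 in Hist1h2ag. Hist1h2ao, the closer copy, was at a mean of 0.150 RPKM and is not part of the sum below. Hist1h2ap was at 5.43, 12.1 and 15.0 RPKM in the controls and 10.4, 6.15 and 4.69 in DM-aKG (adjusted p = 0.256 by limma), and it passed as lower without control replicate 1 (0.0332). Hist1h2ag was at 9.58 RPKM in control replicate 1, at 0.09 and 0.07 in the other controls, and at 0, 0 and 0.440 in DM-aKG (adjusted p = 0.312 by limma). Added together they were at 15.0, 12.2 and 15.0 RPKM in the controls and 10.4, 6.15 and 5.13 in DM-aKG, so the sum separated the groups where neither gene did. This sum was chosen after the values were seen and carries no test. Among other close copies, Hist1h2bq and Hist1h2br had identical values in all libraries, and the ratio of Hist2h3c1 to Hist2h3c2 stayed between 0.310 and 0.327. The 19 clustered H2A genes summed to 29.2, 23.8 and 26.6 RPKM in the controls and 22.9, 16.2 and 17.3 in DM-aKG, without overlap. This separation rests on Hist1h2ap and Hist1h2ag: with both taken out of the H2A sum, the groups overlapped. The 19 H2B genes summed to 43.3, 36.4 and 37.2 RPKM in the controls and to 37.5, 37.2 and 38.8 in DM-aKG.

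**Figure D4:**
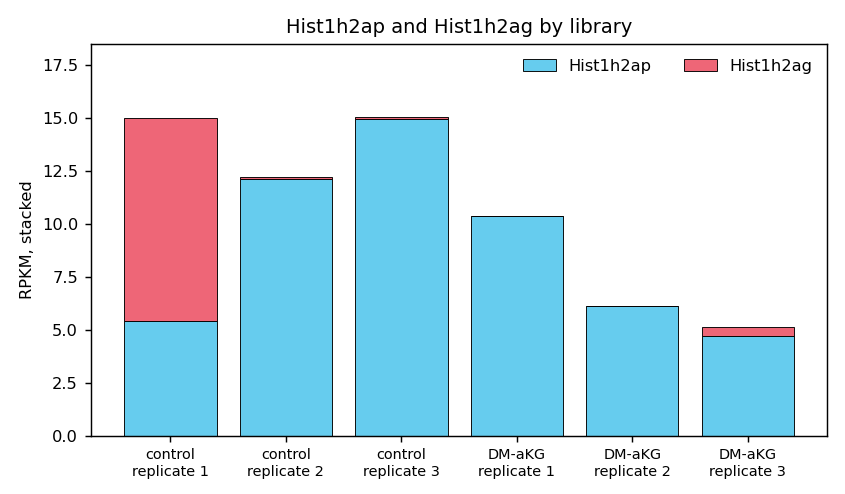
Stacked RPKM of Hist1h2ap (lower part of each bar) and Hist1h2ag (upper part), H2A genes that share part of their sequence, in each library. The 3 control bars end at 12.2 to 15.0 RPKM and the 3 DM-aKG bars at 5.13 to 10.4, and most of the bar of control replicate 1 is Hist1h2ag.

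The plot of fold changes sets both kinds of gene side by side, and the intervals of the clustered genes are wide. A gene at 1 RPKM stands for about 15.99 reads at the length of Hist1h2ap, a counting error of 25.01%, and for about 86.9 reads at that of Hist2h2be, an error of 10.7%. By contrast, H3f3b rested on roughly 13673 to 17599 reads a library. These figures come from library depths estimated from small RNA genes, at which 1 RPKM over 1 kilobase stands for 32.7 to 34.3 reads, and cover counting error only. They also take the longest protein-coding transcript in GENCODE as the gene length. For H3f3b this was 2514 bases, and its other listed transcript, of 1993 bases, would give fewer reads.

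**Figure D5:**
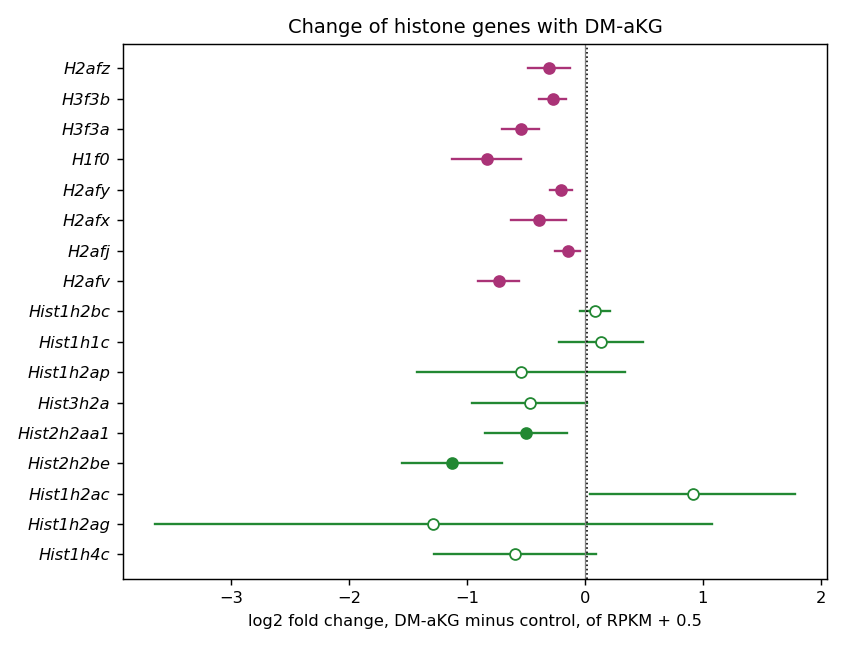
Log2 fold change (DM-aKG minus control, of RPKM + 0.5) of the 17 tested histone genes with 95% intervals, replacement variants in the upper 8 rows and clustered genes in the lower 9; filled points passed limma at an adjusted p under 0.05 and the dotted line is the median of all tested genes, 0.02. All 8 replacement variants and 2 clustered genes are filled, all to the left of 0.

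Promoter sequences are shown because words known from histone promoters were unevenly spread over the members, and because some head-to-head clustered neighbours stood at different levels with 1 short stretch between them. They come from the RefSeq table on GRCm38.p6, in which 72 of 83 members were matched (61 clustered and 11 replacement), with windows of 300 bases around each start. The words searched on both strands were CCAAT (the box bound by NF-Y), TATAAA, the octamer ATTTGCAT and the E2F words TTTCGCGC and TTTGGCGC. Each word was searched on its own, so matches may overlap. Each stretch below holds the 150 bases before the annotated start, and capitals mark these words on either strand.
Hist1h2ac: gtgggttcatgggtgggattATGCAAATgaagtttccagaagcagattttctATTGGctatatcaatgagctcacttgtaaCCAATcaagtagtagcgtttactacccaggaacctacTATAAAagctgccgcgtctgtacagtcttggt
H3f3b: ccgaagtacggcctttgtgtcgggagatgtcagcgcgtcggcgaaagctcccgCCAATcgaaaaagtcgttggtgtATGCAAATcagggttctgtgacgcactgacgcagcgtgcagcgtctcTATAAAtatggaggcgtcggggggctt
H2afz: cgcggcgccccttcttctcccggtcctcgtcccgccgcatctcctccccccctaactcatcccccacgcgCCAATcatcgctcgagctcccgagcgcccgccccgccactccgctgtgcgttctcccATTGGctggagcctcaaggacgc
H1f0: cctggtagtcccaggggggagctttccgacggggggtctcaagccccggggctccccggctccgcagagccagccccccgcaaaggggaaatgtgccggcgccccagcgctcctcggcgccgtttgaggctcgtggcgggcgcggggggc
They lie at chr13:23683960-23684109 (minus strand) for Hist1h2ac, chr11:116024505-116024654 (minus) for H3f3b, chr3:137864337-137864486 (plus) for H2afz and chr15:79028062-79028211 (plus) for H1f0. The Hist1h2ac stretch lies in the 250 bases that separate the start of Hist1h2ac from the start of Hist1h2bc on the opposite strand in GENCODE. Such head-to-head H2A and H2B neighbours within 500 bases numbered 13, among them Hist3h2a with the processed pseudogene Hist3h2bb-ps. Both genes reached 1 RPKM in 1 of these pairs, a single gene did in 4, and neither did in 8. Among the 4, Hist1h2ag beside Hist1h2bj reached it through control replicate 1 alone. Among the 8 were Hist1h2ah and Hist1h2bk at 0.132 and 0.133 RPKM. Hist1h2bc was at a mean of 31.9 RPKM and Hist1h2ac at 1.95, and Hist2h2be at 2.38 beside its neighbour Hist2h2ac at 0.158.

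CCAAT was present in 85.2% of the clustered promoters and 72.7% of the replacement promoters, against 41.1% of all 27025 genes in the table. It was in every matched promoter of clustered H1, H2A, H2B and H3 genes and in 3 of 12 of clustered H4 genes. TATAAA was in 57.4% of clustered, 9.09% of replacement and 15.7% of all promoters. The octamer was found in 7 of 17 clustered H2A and 7 of 16 clustered H2B promoters and in none of the matched clustered H1, H3 and H4 promoters, against 1.97% of all promoters. The E2F words were in 14.8% of clustered, none of the replacement and 0.929% of all promoters. H3f3b was the replacement variant with the octamer and TATAAA, and H1f0 had none of the words in its window. A match describes the letters only.

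The list for transcription and processing of histone messages held 30 symbols, of which 28 were tested. Of these 28, 7 were higher, 7 lower and 14 not called, with a median log2 fold change of -0.04. Over all tested genes 30.9% were higher and 24.7% lower (55.6% called), and nothing particular to this list or to those that follow is read from their counts. Slbp, which binds the stem-loop shown above, fell by 0.25 ± 0.06 on the log2 scale, from a mean of 30.9 to one of 25.9 RPKM (adjusted p = 0.00655 by limma). Casp8ap2, whose protein FLASH acts in the same processing step, fell from 4.42 ± 0.187 to 3.53 ± 0.201 RPKM (adjusted p = 0.00637 by limma). Npat, the coactivator of clustered histone genes, was at 4.38 ± 0.330 RPKM in the controls and 4.21 ± 0.205 with DM-aKG (adjusted p = 0.564 by limma). Ncbp2 and Ncbp1, both subunits of the nuclear cap-binding complex, went opposite ways, Ncbp2 from 10.1 ± 0.453 to 7.28 ± 0.678 RPKM and Ncbp1 from 22.1 ± 1.19 to 26.3 ± 0.230 RPKM. The kinase gene Cdk2, which activates NPAT, fell from 15.1 ± 0.506 to 12.5 ± 0.163 RPKM, and Upf1, a helicase that takes part in histone message decay, rose from 25.7 ± 0.930 to 31.5 ± 1.58 RPKM. With median centring or quantile normalization 3 of the list were higher.

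Of 27 histone chaperones and exchange factors, all tested, 4 were higher, 11 lower and 12 not called, beside 30.9% higher and 24.7% lower over all tested genes, with a median log2 fold change of -0.09. Rbbp7 and Rbbp4, which hold H3 and H4 in several complexes, fell from 246 ± 3.67 to 168 ± 7.71 RPKM and from 37.9 ± 0.775 to 30.7 ± 1.11 RPKM. Ipo4, an importin of H3 and H4, rose from 12.4 ± 0.218 to 17.1 ± 0.787 RPKM. Srcap, the remodeller that installs H2A.Z, rose from 17.4 ± 0.115 to 21.7 ± 0.344 RPKM while both H2A.Z genes fell. The other 4 H2A.Z factors of the list, named after their values were seen, differed among themselves. Vps72 fell from 25.9 ± 0.529 to 21.5 ± 0.368 RPKM and Anp32e from 34.2 ± 1.06 to 26.9 ± 4.47 RPKM. Znhit1 was at 20.5 ± 0.465 RPKM in the controls and 22.1 ± 0.752 with DM-aKG (adjusted p = 0.0721 by limma), and Ep400 at 9.73 ± 0.467 and 10.2 ± 0.378 RPKM (0.303). With an equal RPKM sum 7 of the list were lower. Cenpa, the centromeric H3 variant outside the symbol rule, was at 24.3, 23.3 and 24.5 RPKM in the controls and 29.5, 21.5 and 21.6 in DM-aKG, with overlap.

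Of 26 markers of S phase and proliferation, all tested, 3 were higher, 11 lower and 12 not called, beside 30.9% higher and 24.7% lower over all tested genes, with a median of -0.16 on the log2 scale. Those higher were Rrm2 (from 44.2 ± 0.0850 to 70.3 ± 2.44 RPKM), Top2a (from 59.7 ± 1.20 to 76.4 ± 3.14) and Mki67 (from 35.6 ± 0.652 to 46.9 ± 4.44). Mcm6, of the replicative helicase, fell from 29.8 ± 1.11 to 22.9 ± 1.254 RPKM, and Rpa3, of the single-strand binding complex, from 21.3 ± 0.237 to 16.6 ± 1.06 RPKM. Their part in the histone values was not tested.

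The 7 markers of epithelium were all at 34.9 RPKM or more in each library, summing to 2593 to 2648 RPKM in the controls and 3418 to 4326 in DM-aKG. Of these 7, 5 were higher and 2 lower, beside 30.9% higher and 24.7% lower over all tested genes (55.6% called). The keratin genes Krt8, Krt18 and Krt19 made up most of the rise. Epcam was at 421 ± 4.48 RPKM in the controls and 334 ± 7.12 with DM-aKG (adjusted p = 4.19e-04 by limma). Cdx2 was at 70.3 ± 1.99 and 40.6 ± 8.90 RPKM (adjusted p = 0.00146 by limma). Markers of other cells were near 0: 6 of 7 of fibroblasts and muscle, 5 of 6 of immune cells and 6 of 6 of endothelial and glial cells stayed below 1 RPKM in all libraries. Summed, the fibroblast and muscle markers were at 2.73 to 3.06 RPKM in the controls and 3.87 to 5.03 in DM-aKG, nearly all of it Vim. The immune markers were at 1.23 to 1.37 and 0.990 to 2.50, and the endothelial and glial ones at 0.570 to 0.750 and 1.24 to 1.39. Of these markers, Col3a1, Dcn, Cdh5 and Kdr were listed at 0 in every library. Pecam1 (means of 0.140 RPKM in control and 0.310 in DM-aKG) and S100b (0.270 and 0.850) were higher without overlap. Lyz2 (0.447 and 0.173) was lower without overlap. The part of these differences in the histone values was not tested. RPKM sums were 369553 to 374975 in control and 358636 to 363467 in DM-aKG, and the 83 histone genes held 0.279% to 0.293% and 0.210% to 0.249% of them.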

How the data were processed

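RNA-seq of 6 libraries was analysed from the table of RPKM (2 decimals, 24956 symbols) that the authors deposited. CASAVA 1.8, HISAT2 2.0.4, Partek and the build mm10 are named per the submitters' processing notes; their roles, the annotation used and the handling of multiply mapped reads are not stated. Columns were matched to samples by title.

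RPKM was analysed as log2(RPKM + 0.5), which understates changes of low genes. The 10852 genes with a mean of at least 1 RPKM were fitted with limma 3.58.1 in R 4.3.3 (mean-variance trend, two-sided, no replicate term), with Benjamini-Hochberg adjustment over all of them and calls under 0.05. The procedure was tested on simulated data. Tables were made in Python 3.11.15 (pandas 2.3.3, numpy 2.4.6), plots with matplotlib 3.10.9. Depth was estimated per library as the number of reads that places the largest number of miRNA and snoRNA gene values at 1 read. These were from 34 of 97 values above 0 (control replicate 2) to 55 of 114 (DM-aKG replicate 2). Of 33 to 39 other small values, 90.9% to 94.4% were then whole within 0.05 reads. Transcripts and positions come from GENCODE M21 (GRCm38), promoters from RefSeq (GRCm38.p6).

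Members, gene lists and tests were chosen with earlier results of these data known. Named genes were members at a mean of at least 1 RPKM, the 4 genes of smallest p in each other list, Slbp, Npat and Casp8ap2; any others were chosen after their values were seen. Alternatives covered the pseudocount, filter, scaling, variance model, array weights, replicate block and omission of each library; the joint omission of control replicate 2 and DM-aKG replicate 1 was chosen after seeing the data.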

Additional observations from a re-analysis of the deposited data

How the results depend on the processing

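Of the 17 histone genes, H1f0, H2afv, H2afx, H2afy, H2afz, H3f3a, H3f3b and Hist2h2be stayed lower and past the threshold under every alternative that tested them. Replacement variants called lower numbered 7 to 9 and clustered genes called lower 0 (mean of at least 3 RPKM) to 5 (array weights, with 2 higher). The filter at 3 RPKM left 4 clustered genes and removed both called ones, Hist2h2be and Hist2h2aa1, so it could not give their calls. With array weights 4149 of all 10852 tested genes were higher and 3563 lower. With no filter on low values 65 clustered genes and 11 replacement variants were tested. The counts were then 4 clustered genes lower and 1 replacement variant higher, H2afy3, a processed pseudogene in GENCODE at a mean of 0.0517 RPKM. Over all 18343 genes tested without a filter, 3783 were higher and 2832 lower. Leaving out each library in turn gave 1 to 4 clustered genes lower and 0 to 2 higher, 7 to 8 replacement variants lower, 6 to 14 chaperones lower and 3 to 6 genes of the message-processing list higher. That list had 3 higher with median centring, quantile normalization or the replicate block, and the chaperones had 7 lower with an equal RPKM sum. Leaving out each library moved the log2 fold change of Hist1h1c up to 0.23, that of Hist1h2ag down to -1.98 and that of Npat down to -0.0903. The direction of Hist1h1c turned without control replicate 2 (-0.000458), without DM-aKG replicate 1 (-0.0163), with both left out together (-0.152) and with array weights (-0.115). Hist1h2ag turned to 0.0897 and Npat to 0.00344 without control replicate 1. The cause was not tested in these cases. The replicate numbers did not pair the samples: deviations of same-numbered libraries correlated at -0.0832, -0.114 and 0.0110. With the replicate number as a block, 3 clustered genes and 8 replacement variants were lower, the addition being Hist3h2a (limma, adjusted p = 0.0212). The 66 of 83 members below 1 RPKM rest on few reads. With no filter 5 of them were called by limma, H1fx, Hist1h3f, Hist2h3c1 and Hist2h3c2 lower and H2afy3 higher.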
